A study of Mus musculus with 50 samples.

Results

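Apoa1, Apoc1 and Apoe were the 3 apolipoprotein genes followed here, out of 1000 gene targets of a spatial transcriptomics panel read on mouse liver sections. They were taken as the 3 columns of those names in the count matrix. Livers came from C57BL/6 mice that were injected at 6 months of age with AAV8-Tbg-Cre, a virus whose Tbg promoter drives Cre recombinase in hepatocytes, and collected 12 months later, at 18 months of age. Controls were wild-type mice given the virus, and HIRA KO mice carried floxed alleles of Hira, which encodes a chaperone that places histone H3.3 into chromatin, and received the same virus. Both groups therefore carried virus and Cre, and the other cells of the HIRA KO liver are not a target of the promoter. Hira was not among the targets, so the deletion could not be checked in these data.

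Sections of 5 µm from the median lobe were imaged by CosMx, in which fluorescent probes are decoded in place and each decoded spot counts as 1 transcript of its target, assigned to a segmented cell. The 50 fields of view, 25 per group, lay on 1 slide in 6 tissue areas (3 control, 3 HIRA KO). The area was the replicate in every comparison but a limma-voom alternative, whose units were fields of view with the area as a random block. The study describes biological replicates, whereas the labels name no mouse for any field of view, so p-values measure the spread between areas, which may be technical. Each of 3 rows of the slide held 1 control area on its left and 1 HIRA KO area on its right, so genotype and side of the slide cannot be told apart. Of 52132 segmented cells 49665 were kept, with 718991 to 1066387 gene counts per control area and 1292256 to 1542205 per HIRA KO area.

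Apolipoproteins are the protein part of lipoprotein particles, which carry cholesterol and triglycerides through the blood. Apoa1 encodes the main protein of high-density lipoprotein and is made by liver and intestine. Apoc1 encodes a small exchangeable apolipoprotein that limits the breakdown and uptake of triglyceride-rich particles. Apoe encodes the ligand by which lipoprotein receptors take up remnant particles, and besides hepatocytes it is made by macrophages, Kupffer cells of the liver among them. In GENCODE vM21 on GRCm38, Apoa1 (ENSMUSG00000032083.8) spans chromosome 9, 46228580 to 46230466, on the plus strand. Apoc1 (ENSMUSG00000040564.14) spans chromosome 7, 19689481 to 19692660, and Apoe (ENSMUSG00000002985.16) chromosome 7, 19696109 to 19699188, both on the minus strand, so that Apoc1 lies 3448 bases downstream of Apoe. The panel's tables carry no probe positions, so values of different genes were not set against each other as levels.

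All of these genes were among the most frequent targets. In segmented cells Apoe had 92370 counts and ranked 2 of 1000, Apoc1 had 79927 and ranked 4, and Apoa1 had 24681 and ranked 25. Together they made up 2.811% of all gene counts. Levels are given as counts per 1000000 counts (CPM), that is the counts of a gene divided by all gene counts of the same cells and area, so a level is a share of the transcripts read there and not a number per cell.

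Cells were clustered without these genes, and clusters were named, with the ending "-like", from markers of liver cell types. Hepatocyte-like cells comprised 13925 cells in 3 clusters with 6, 7 and 6 of 11 hepatocyte markers raised. Kupffer-like cells, the resident macrophages, were 1 cluster of 3357 cells with 7 of 7 markers raised, led by Cd5l and C1qb. Another 3036 cells, led by the antigen presentation gene H2-Aa, mixed Kupffer markers with those of monocytes and dendritic cells and were left unnamed. Segmented cells of a section share transcripts with their neighbours, so the T/NK-like class, lymphocytes that should lack these genes, was used as the measure of transcripts found in a cell from outside it.

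Apoa1 stood out in 1 class. Across the 6 areas hepatocyte-like cells held 5293 ± 1059 CPM of Apoa1 (SD, n = 6) and ranked first in every area. The 6 other groups lay between 1660 and 2491 CPM, and no neighbours in their order differed beyond the spread between areas. Groups left out of this comparison had medians over areas above this range, except B lineage-like cells. The medians were 3126 and 3234 CPM in unnamed clusters led by Tyms and Reg1 (3431 and 3259 cells) and 3307 CPM in myofibroblast-like cells. Unnamed clusters led by S100a9, Glul, Hba-a1/2 and Saa1/2 had 3306, 4222, 4387 and 4748 CPM. Hepatocyte-like cells were 2.44-fold above T/NK-like cells in 6 of 6 areas (exact sign-flip test over areas, two-sided, p = 0.031, the smallest possible, adjusted p = 0.0563 over 18 comparisons). Kupffer-like cells, at 0.949-fold of T/NK-like cells, were above them in 2 of 6 areas (exact test, p = 0.1875), a level read here as background. That background differs by lymphocyte class. B lineage-like cells, with as few as 28 in 1 area, had a median of 866 CPM of Apoa1 over areas, against 2128 CPM in T/NK-like cells.

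Among these 7 groups Apoc1 was highest in hepatocyte-like cells and second in Kupffer-like cells, in every area. Outside them, Glul-led cells had a median of 19326 CPM over areas, against 15586 CPM in hepatocyte-like cells. The mean over the 6 areas was 15440 ± 1492 CPM (SD) in hepatocyte-like and 9482 ± 1183 CPM (SD) in Kupffer-like cells. The other 5 groups lay between 6307 and 7894 CPM, in an order whose neighbours did not differ beyond the spread. Against T/NK-like cells the hepatocyte-like level was 2.07-fold and the Kupffer-like level 1.27-fold, each higher in 6 of 6 areas (exact sign-flip tests, p = 0.031, adjusted p = 0.0563). Cholangiocyte-like, stellate-like and endothelial-like cells, at 0.967-fold to 1.05-fold, could not be told from T/NK-like cells at this number of areas, and the H2-Aa-led cells lay below T/NK-like cells in 6 of 6 areas, at 0.835-fold. B lineage-like cells had a median of 2990 CPM over areas, against 7239 CPM in T/NK-like cells.

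Among the 7 groups Apoe had another order, with hepatocyte-like cells in its lower part. The H2-Aa-led cells held 19550 ± 3570 CPM (SD, n = 6) and the Kupffer-like cells 19421 ± 4308 CPM, and these did not differ beyond their spread (exact sign-flip test, p = 0.875). Cholangiocyte-like cells, the lining of the bile ducts, followed at 16614 ± 2625 CPM, not separable from Kupffer-like cells (exact test, p = 0.21875) and above stellate-like cells in 6 of 6 areas (p = 0.031, exact). Stellate-like cells at 12822 CPM and hepatocyte-like cells at 12302 CPM were not separable (exact test, p = 0.46875), while endothelial-like cells at 10918 CPM and T/NK-like cells at 8581 CPM were lowest in every area. Every group was above T/NK-like cells in 6 of 6 areas, by 2.26-fold for H2-Aa-led, 2.24-fold for Kupffer-like, 1.94-fold for cholangiocyte-like, 1.48-fold for stellate-like, 1.41-fold for hepatocyte-like and 1.27-fold for endothelial-like cells (exact sign-flip tests, p = 0.031, adjusted p = 0.0563).

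**Figure D1:**
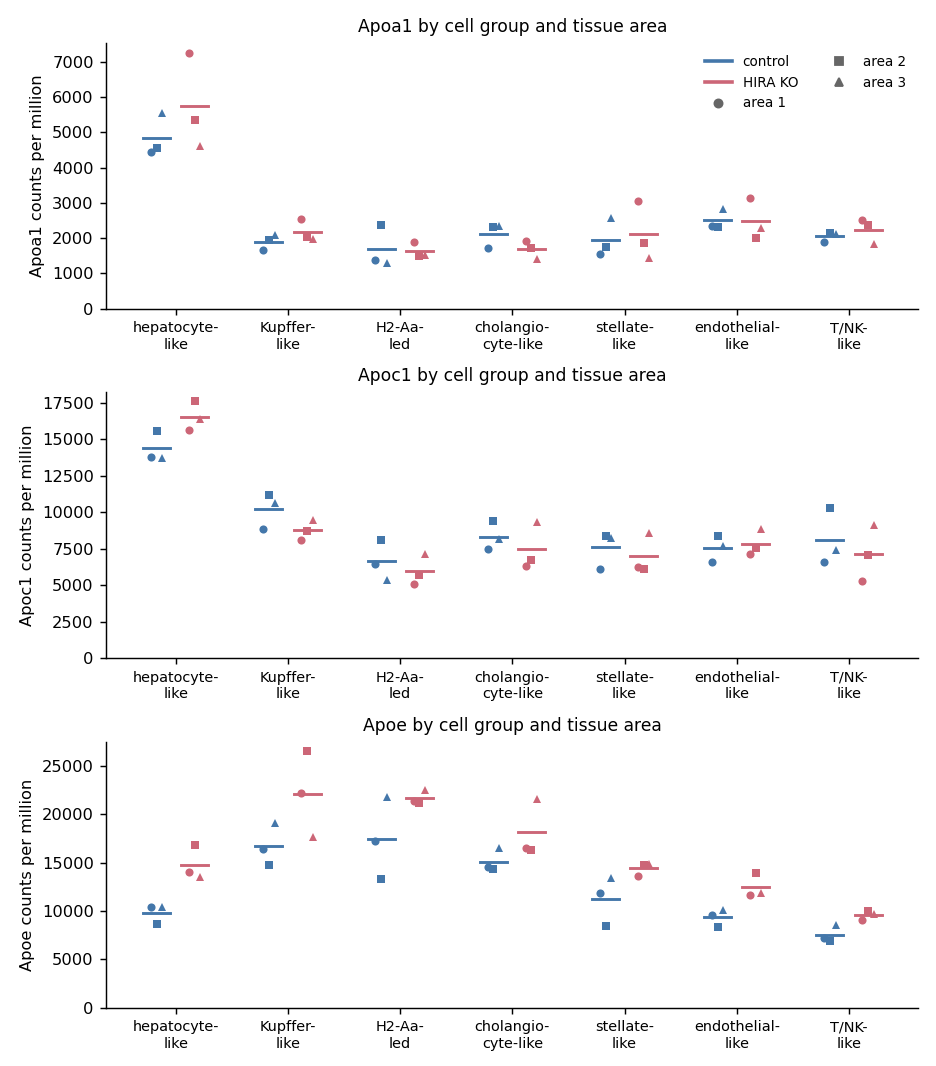
Levels in CPM of Apoa1, Apoc1 and Apoe (linear axes from 0) in 7 cell groups, 1 point per tissue area, blue for control and red for HIRA KO, with the shape giving the area and the bar the mean of 3 areas. Among these groups Apoa1 and Apoc1 were highest in hepatocyte-like cells in every area, whereas Apoe in Kupffer-like cells averaged 19421 CPM against 12302 CPM in hepatocyte-like cells.

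Shares of cells with a transcript gave the same picture once depth was evened. With each cell thinned to 50 counts, and shallower cells left out (1585 of 13925 hepatocyte-like, 511 of 3357 Kupffer-like and 377 of 1666 T/NK-like cells), the median area had Apoa1 in 21.1% of hepatocyte-like, 8.80% of Kupffer-like and 9.03% of T/NK-like cells. For Apoc1 these shares were 51.5%, 34.6% and 28.6%, and for Apoe 42.4%, 56.1% and 32%. Unthinned, Apoe was present in 60.7% to 82.4% of hepatocyte-like, 71.4% to 83.1% of Kupffer-like and 35.4% to 55.4% of T/NK-like cells, whose median depths ranged over 117 to 201, 93.5 to 158 and 75 to 103 counts. No cell class was free of any of these transcripts. Hepatocyte-like cells nevertheless held a median of 49.6% of all Apoa1, 46.8% of all Apoc1 and 33.9% of all Apoe counts of an area, against 3.96%, 5.66% and 10.1% in Kupffer-like cells.

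The ratio of Apoe to Apoa1 counts within the same cells separated the classes further, since the total of the cells cancels in it. In hepatocyte-like cells this ratio was 2.34, 1.90 and 1.88 in the control areas and 1.93, 3.13 and 2.94 in the HIRA KO areas. In Kupffer-like cells it was 9.90, 7.51 and 9.11 in control and 8.78, 13.1 and 8.89 in HIRA KO areas, so the classes did not overlap. The Kupffer-like ratio was 4.09-fold that of hepatocyte-like cells of the same area (log2 difference 2.03 ± 0.24, SD over 6 areas, exact sign-flip test, two-sided, p = 0.031, adjusted p = 0.0469 over 12 ratios). The ratio was also above that of hepatocyte-like cells in 6 of 6 areas in each other group, by 5.15-fold in H2-Aa-led, 3.81-fold in cholangiocyte-like, 2.80-fold in stellate-like, 1.90-fold in endothelial-like and 1.73-fold in T/NK-like cells (exact tests, adjusted p = 0.0469 each). The 1.73-fold of T/NK-like cells is taken as the background of this measure, and the other groups were not tested against it. Hepatocyte-like cells, the reference, had the highest Apoa1 of these groups, which lowers their ratio.

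For Apoc1 to Apoa1 the same comparison passed for Kupffer-like cells, at 1.58-fold, and for cholangiocyte-like cells, at 1.41-fold (exact sign-flip tests, 6 of 6 areas each, adjusted p = 0.0469). The other 4 groups, at 1.05-fold to 1.30-fold, did not pass (exact tests, adjusted p from 0.0833 to 0.188). T/NK-like cells, taken as the background, were at 1.18-fold, and in HIRA KO area 3 their ratio (4.94) exceeded the Kupffer-like one (4.76). Because no ratio was tested against that of T/NK-like cells, a pass here does not place a class above this background. Cholangiocyte-like cells held Apoc1 at 1.05-fold and Apoa1 at 0.881-fold of T/NK-like cells, neither separable from them (exact sign-flip tests, p = 0.34375 and 0.1875). Relative to 9 plasma protein transcripts of the hepatocyte on the panel (Ttr, Gc, Azgp1, Serpina1a, Fgg, Vtn, Selenop, Igf1 and Crp), Apoa1 in Kupffer-like cells was 0.995-fold of its ratio in hepatocyte-like cells (exact test, p = 0.9375). Apoe on the same scale, a denominator added after the data were seen, was 4.07-fold and Apoc1 1.57-fold, each above in 6 of 6 areas (exact tests, adjusted p = 0.0511 over 18 ratios). On this scale the Apoa1 difference between the classes was -0.01 ± 0.15 in log2 (SD over 6 areas), below 0 in 4 of them.

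**Figure D2:**
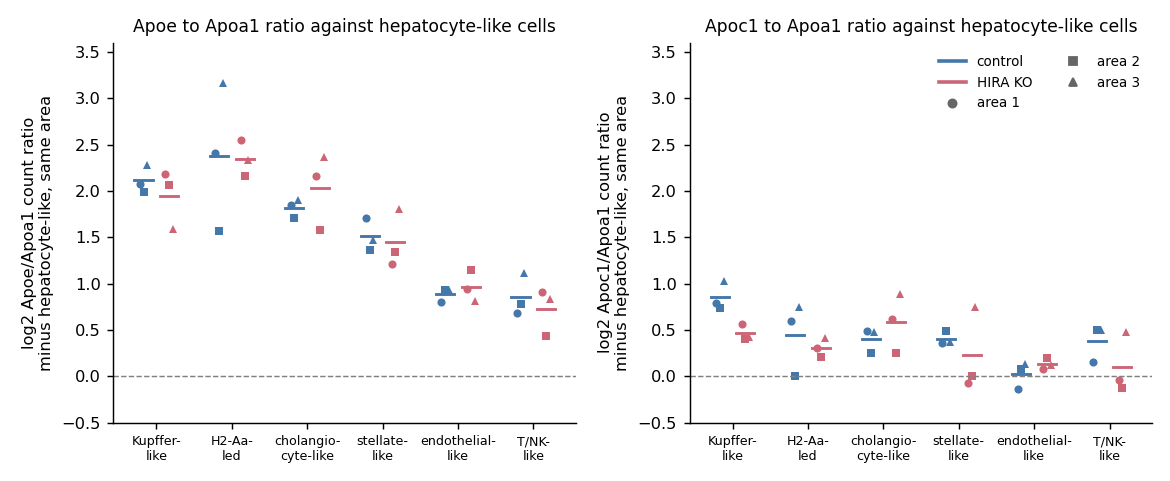
Log2 ratio of Apoe to Apoa1 counts (left) and of Apoc1 to Apoa1 counts (right) in each cell group, minus the log2 ratio in hepatocyte-like cells of the same area (dashed line at 0). Points are tissue areas and bars the mean of 3 areas per genotype. Kupffer-like cells averaged 2.03 on the left and 0.66 on the right.

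Kupffer-like cells next to many hepatocytes and those next to few were then compared. In each area they were split into 3 equal groups by the share of hepatocyte-like cells among the 20 nearest cells, which averaged 3.90% to 23% in the group with the fewest and 25.1% to 59.3% in that with the most. The summed plasma protein transcripts were 1.42-fold higher where hepatocyte-like neighbours were most frequent, in 6 of 6 areas (exact sign-flip test, two-sided, p = 0.031, adjusted p = 0.125 over 4 measures). Apoa1 was 1.36-fold higher in 5 of 6 areas (exact p = 0.0625) and Apoc1 1.36-fold in 5 of 6 (exact p = 0.09375), the exception being the HIRA KO area 3 for both. Apoe differed by 1.03-fold and was higher in 3 of 6 areas (log2 difference 0.05 ± 0.17, SD, exact p = 0.6875). None of these passed after adjustment, and the difference between Apoe and the other measures was not tested.

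**Figure D3:**
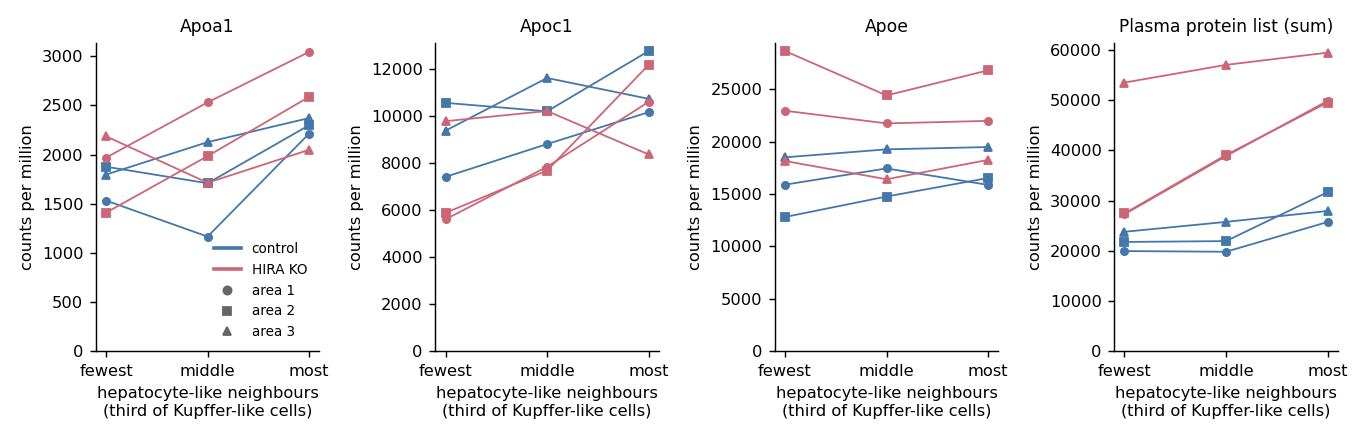
Levels in CPM in Kupffer-like cells, split within each area into 3 equal groups by hepatocyte-like neighbours, for Apoa1, Apoc1, Apoe and the sum of 9 plasma protein transcripts (linear axes from 0, 1 line per area). The plasma protein sum was higher with most than with fewest neighbours in 6 of 6 lines, and Apoe in 3 of 6.

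To ask how loss of HIRA in hepatocytes affected these genes, counts were summed per area over hepatocyte-like cells and tested with edgeR across 998 genes. These cells numbered 1088, 2229 and 1831 in control and 2379, 3473 and 2925 in HIRA KO areas. The unnamed Tyms-led cluster, left out, had 1654, 630 and 210 cells in control and 546, 336 and 55 in HIRA KO areas. In control area 1 it held 28.3% of Apoa1 counts, against 26.3% in hepatocyte-like cells. The part of this unequal naming in the genotype values was not tested. None of the apolipoprotein genes passed at an adjusted p of 0.05, where 8 of 998 genes, or 0.802%, did, 6 higher and 2 lower in HIRA KO. At an unadjusted p below 0.05 there were 115 genes. Apoe was nearest to the threshold. Its level was 10413, 8645 and 10457 CPM in the control areas and 13972, 16799 and 13525 CPM in the HIRA KO areas. Every HIRA KO area was above every control area, a separation in that direction seen for 33 of 998 genes, or 3.31%. Means were 9838 ± 1034 and 14765 ± 1775 CPM (SD, n = 3 areas each). The edgeR log2 fold change was 0.72 ± 0.21 (SE, p = 0.00332, adjusted p = 0.156, rank 21 of 998).

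The call for Apoe depended on the test. DESeq2 on the same sums gave an adjusted p of 0.00295 with 33 of 998 genes, or 3.31%, called. A limma-voom fit to fields of view, with the area as a random block, gave 0.002 with 51 of 993 genes, or 5.14%, called. In that fit the fields are the observations, so its p-values rest on more units than there are areas. With the slide row as a block in edgeR the adjusted p was 0.0579, with 29 of 998 genes, or 2.91%, called. Within the 3 slide rows, each with 1 area per genotype, the log2 difference in CPM was 0.42, 0.96 and 0.37, and the edgeR value lay between 0.60 and 0.78 when each area was left out in turn.

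Apoc1 in hepatocyte-like cells was 13788, 15554 and 13736 CPM in control and 15617, 17583 and 16364 CPM in HIRA KO areas. The lowest HIRA KO area exceeded the highest control area by a small margin, a separation in that direction seen for 33 of 998 genes, or 3.31%. The edgeR log2 fold change was 0.34 ± 0.20 (SE, adjusted p = 0.531). Apoa1 was 4449, 4556 and 5550 CPM in control and 7242, 5361 and 4598 CPM in HIRA KO areas. These ranges overlapped, with the HIRA KO area 1 highest, and the edgeR log2 fold change was 0.36 ± 0.19 (SE, adjusted p = 0.47), and 0.20 without HIRA KO area 1.

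Different clusters held most of the hepatocyte-like cells in the groups. A cluster led by Neat1, a nuclear long non-coding RNA, held 65.7% to 72.0% of hepatocyte-like cells in control and 14.6% to 21.9% in HIRA KO areas. Clusters led by Gc, which encodes vitamin D-binding protein, and by Ttr, which encodes transthyretin, held 23.8% to 29.5% and 4.21% to 5.06% in control and 30.4% to 57.0% and 21.1% to 55.0% in HIRA KO areas. Each cluster was then tested alone, an alternative added after the data were seen. All of the apolipoprotein genes were lowest in the Neat1-led and highest in the Ttr-led cluster in control areas, where Apoe averaged 8299 ± 1209, 13256 ± 741 and 18588 ± 1396 CPM (SD, n = 3) in the Neat1-led, Gc-led and Ttr-led clusters.

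Within clusters Apoe was close between genotypes. The HIRA KO means were 9788 ± 545, 13275 ± 1267 and 17976 ± 2614 CPM (SD, n = 3) in the same order, with edgeR log2 fold changes of 0.27 ± 0.25, -0.00 ± 0.17 and -0.06 ± 0.21 (SE, adjusted p = 0.973, 0.999 and 0.979). The difference was 0.72 over all hepatocyte-like cells and at most 0.27 within 1 cluster. The clusters were formed on counts that include Ttr and Gc, both called higher in HIRA KO over all hepatocyte-like cells. Apoe followed these 2 genes over fields (r = 0.87 and 0.83), so a split on them can by itself narrow the Apoe difference. The part of the cluster mix in that difference was not tested.

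Apoc1 had the opposite sign in the Gc-led and Ttr-led clusters to that over all hepatocyte-like cells. In the Gc-led cluster it was 20364, 24186 and 16847 CPM in control and 14298, 13688 and 14842 CPM in HIRA KO areas, and in the Ttr-led cluster 33798, 35080 and 30714 CPM against 22242, 21991 and 18356 CPM. All HIRA KO areas lay below all control areas in both, as did 6.01% of genes in the Gc-led and 6.35% in the Ttr-led cluster. The edgeR log2 fold changes were -0.53 ± 0.17 (SE, p = 0.00386, adjusted p = 0.326) and -0.69 ± 0.21 (SE, p = 0.00227, adjusted p = 0.600), and in the Neat1-led cluster -0.05 ± 0.26. Apoa1 gave 0.03 ± 0.21, -0.33 ± 0.19 and -0.64 ± 0.25 in the Neat1-led, Gc-led and Ttr-led clusters, with overlapping areas in each. No gene of the 998 and 992 tested passed in the Gc-led and Ttr-led clusters (0.0% each, with 74 and 60 at an unadjusted p below 0.05), and 1 of 998, or 0.1%, passed in the Neat1-led cluster. The Ttr-led cluster rested on 55 to 107 cells per control area against 503 to 1635 per HIRA KO area. As for Apoe, the split was made on counts that include Ttr and Gc. Its part in the Apoc1 and Apoa1 values was not tested.

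**Figure D4:**
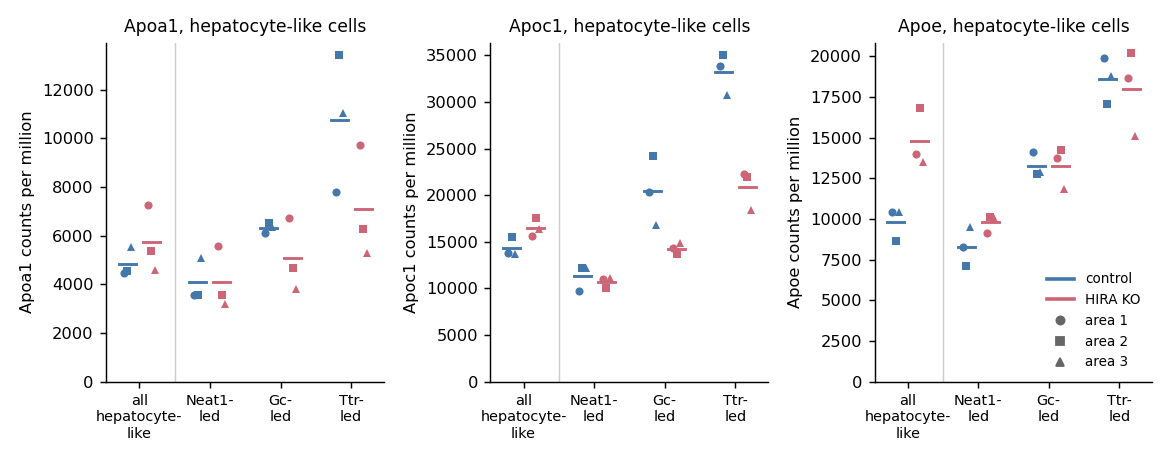
Levels in CPM of Apoa1, Apoc1 and Apoe in all hepatocyte-like cells and in their 3 clusters (linear axes from 0), 1 point per tissue area with bars at the mean of 3 areas, blue for control and red for HIRA KO. Apoe was separated by genotype over all hepatocyte-like cells (9838 against 14765 CPM) and overlapped within each cluster, whereas Apoc1 was lower in HIRA KO areas in the Gc-led and Ttr-led clusters.

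Kupffer-like cells were compared between genotypes in the same way, with 468 to 629 cells per area. No apolipoprotein gene passed in edgeR, where 5 of 997 genes, or 0.502%, did and 49 had an unadjusted p below 0.05. Apoe was 16390, 14720 and 19077 CPM in control and 22218, 26512 and 17608 CPM in HIRA KO areas, with the third HIRA KO area inside the control range (log2 fold change 0.46 ± 0.33, SE, edgeR adjusted p = 0.885). In the limma-voom fit to fields of view, limited to the 203 genes with enough counts, Apoe passed with a log2 fold change of 0.44 ± 0.11 and an adjusted p of 0.00338, as did 8 of 203 genes, or 3.94%. Apoc1 was 8856, 11185 and 10593 CPM in control and 8110, 8714 and 9432 CPM in HIRA KO areas (-0.15 ± 0.27, edgeR adjusted p = 0.984), and Apoa1 ranged over 1656 to 2095 CPM and 1980 to 2531 CPM (0.25 ± 0.20, edgeR adjusted p = 0.885). The areas overlapped for both.

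Plasma protein transcripts in Kupffer-like cells differed with genotype. Whether Kupffer-like cells make any of them was not tested. The 9 plasma protein transcripts summed to 21980 to 25810 CPM in control and 39034 to 56792 CPM in HIRA KO areas, and Ttr alone to 8962 to 10788 and 17574 to 32209 CPM (exact permutation tests of 3 against 3 areas, p = 0.1 each, the smallest possible). Their part in the apolipoprotein values was not tested. The reverse measure, the summed Kupffer markers in hepatocyte-like cells, was 5003 to 5997 CPM in control and 4993 to 6207 CPM in HIRA KO areas.

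The genotype effect itself did not pass as different between Kupffer-like and hepatocyte-like cells for any of the genes. The edgeR interaction, Kupffer-like minus hepatocyte-like, was -0.10 ± 0.16 for Apoa1, -0.50 ± 0.16 for Apoc1 and -0.27 ± 0.16 for Apoe on the log2 scale (SE, adjusted p = 0.932, 0.572 and 0.743), and 2 of 998 genes, or 0.2%, passed. Apoc1 had the 9th lowest p of the 998 (p = 0.00544). The interaction was fitted over both cell classes of the same 6 areas with a term for the area.

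In the other classes no apolipoprotein gene passed in edgeR. The genes called were 0 of 992 (0.0%, with 60 at an unadjusted p below 0.05) in cholangiocyte-like, 4 of 998 (0.401%) in stellate-like, 1 of 998 (0.1%) in endothelial-like and 0 of 912 (0.0%, with 40) in T/NK-like cells, and 2 of 998 (0.2%) over all kept cells. Apoe gave positive log2 fold changes throughout, 0.31 ± 0.33 in cholangiocyte-like, 0.40 ± 0.31 in stellate-like, 0.46 ± 0.31 in endothelial-like and 0.39 ± 0.25 in T/NK-like cells and 0.56 ± 0.33 over all kept cells (SE). All 3 HIRA KO areas lay above all 3 control areas for Apoe in stellate-like, endothelial-like and T/NK-like cells and over all kept cells, as did 5.41%, 3.81%, 4.17% and 2.51% of all genes there, and also in 1060 myofibroblast-like cells, too few per area to be tested, with 8516 ± 852 and 11181 ± 312 CPM (SD, n = 3) and 5.01% of genes so separated. Apoe in the T/NK-like class, the measure of transcripts from outside a cell, was 7552 ± 876 CPM in control and 9610 ± 480 CPM in HIRA KO areas (SD, n = 3). Apoc1 and Apoa1 overlapped between genotypes in each of these classes and over all kept cells.

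Other genes of lipoprotein transport and lipid control gave few differences. Of a list of 58 genes 19 were on the panel, among them scavenger receptors (Cd36, Msr1, Olr1), sterol and fatty acid enzymes (Hmgcs1, Sqle, Fasn) and nuclear receptors (Nr1h2, Nr1h3, Ppara), and edgeR called 0 of 19 in hepatocyte-like and 0 of 19 in Kupffer-like cells, against 0.802% and 0.502% of all genes. In hepatocyte-like cells Clu passed as higher in HIRA KO with DESeq2, with limma-voom on fields of view and with the slide row as a block, and Fasn as lower with limma-voom. The median edgeR log2 fold change of the 19 genes was -0.01 in hepatocyte-like and 0.04 in Kupffer-like cells, against -0.01 and 0.01 over all genes tested. The lowest p-values in hepatocyte-like cells belonged to Clu, the apolipoprotein clusterin and also a cholangiocyte marker (log2 fold change 0.58 ± 0.17, edgeR adjusted p = 0.156), to Msr1, a macrophage scavenger receptor (0.42 ± 0.14, adjusted p = 0.171), and to Fasn, the fatty acid synthase (-0.55 ± 0.21, adjusted p = 0.295). In Kupffer-like cells they belonged to the fatty acid and lipoprotein receptor Cd36 (0.48 ± 0.19, adjusted p = 0.721), to Clu (0.44 ± 0.19, adjusted p = 0.837) and to Apod, an apolipoprotein of the lipocalin family (-0.39 ± 0.18, adjusted p = 0.885).

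The plasma protein transcripts, in contrast, included called genes. In hepatocyte-like cells edgeR called 4 of 9 higher in HIRA KO (Vtn, Gc, Selenop and Ttr) and 0 lower, against 0.802% of all genes called, with a median log2 fold change of 0.56 over the list and -0.01 over all genes. Ttr was 30033, 27418 and 33197 CPM in control and 53646, 81615 and 75780 CPM in HIRA KO areas (log2 fold change 1.36 ± 0.27, edgeR adjusted p = 0.0256). Vtn, Gc and Ttr were also called higher in Kupffer-like cells, against 0.502% of all genes called, with a median of 0.67 over the 9 and 0.01 over all genes. These genes include leading genes of the hepatocyte-like clusters, so their counts are a description of the cells and no separate test.

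Relative to the area of the cells the Apoe difference was larger, and HIRA KO areas also gave more counts of all genes. In hepatocyte-like cells Apoe counts per 1000 square pixels were 0.0583, 0.0739 and 0.0542 in control and 0.112, 0.168 and 0.128 in HIRA KO areas, a ratio of means of 2.19, while all genes together had a ratio of 1.42. In Kupffer-like cells the ratio was 1.85 for Apoe and 1.38 for all genes. The outlines also differed in size, which enters this scale. The median area of hepatocyte-like cells was 22729 to 24002 square pixels in control and 16621 to 22712 in HIRA KO areas. Per hepatocyte-like cell, mean Apoe counts were 1.36, 1.75 and 1.30 in control and 1.97, 3.30 and 2.95 in HIRA KO areas. Exact permutation tests, two-sided, gave p = 0.1 for Apoe and Apoa1 in both classes, the smallest possible with 3 against 3 areas (adjusted p = 0.15 over 9 tests), and p = 0.2 and 0.5 for Apoc1. For all genes together they gave p = 0.2 in hepatocyte-like and 0.1 in Kupffer-like cells.

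Lobule position was approximated by distance from Glul-led cells. Glul encodes glutamine synthetase, which hepatocytes next to the central vein make, while Arg1, an enzyme of the urea cycle, is higher towards the portal vein. In each area the hepatocyte-like cells were split into 3 equal groups (near, middle and far) by distance from the nearest of the 125 to 352 Glul-led cells. The axis was uneven between areas. Near cells lay at medians of 225 to 295 pixels in control and 366 to 386 pixels in HIRA KO areas. Far cells lay at 743 to 999 and 1202 to 1319 pixels. Far cells were not always nearer to bile ducts. Median distances to cholangiocyte-like cells, near and far, were 488 and 476, 730 and 916, and 659 and 600 pixels in control areas. In HIRA KO areas they were 255 and 365, 273 and 334, and 775 and 555 pixels. Glul-led cells made up 11.7% to 33% of the 20 nearest cells of a Glul-led cell in the control areas and HIRA KO area 3, and 6.52% and 10.6% in HIRA KO areas 1 and 2, where they held 20.2% and 23.4% of all Glul counts against 31.7% to 58.3% elsewhere. Arg1 on this axis differed between far and near by log2 0.09, -0.20 and -0.05 in control and 0.45, 0.13 and 0.26 in HIRA KO areas, so far cells had more of this portal gene in 3 of 3 HIRA KO and 1 of 3 control areas.

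In control areas each of the apolipoprotein genes was lower far from Glul-led cells. Apoc1 went from 14991, 17836 and 14811 CPM near to 11356, 13502 and 12831 CPM far, a log2 difference of -0.40, -0.40 and -0.21. Apoe went from 11428, 9647 and 11322 CPM near to 9524, 7779 and 9709 CPM far (log2 -0.26, -0.31 and -0.22), and Apoa1 from 4758, 5250 and 5834 CPM to 3856, 3701 and 5445 CPM (log2 -0.30, -0.50 and -0.10). A lower far level in all 3 control areas was seen for 99 of 997 genes, or 9.93%. The edgeR values in control, -0.37 ± 0.11, -0.30 ± 0.11 and -0.34 ± 0.11 for Apoc1, Apoe and Apoa1 (SE), had ranks of 3, 10 and 5 of 997 by p and did not pass (adjusted p = 0.223, 0.435 and 0.247, with 0 of 997 genes, or 0.0%, called and 74 at an unadjusted p below 0.05).

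In HIRA KO areas the differences had both signs. Far over near, Apoe gave log2 0.25, 0.13 and -0.27, Apoc1 0.15, 0.20 and -0.22, and Apoa1 0.19, 0.06 and -0.17, so that area 3 had the sign of the control areas and areas 1 and 2 the opposite sign. This arrangement of signs over the 6 areas was shared by 20 of 997 genes, or 2.01%. Over the 3 HIRA KO areas edgeR gave 0.07 ± 0.10, 0.08 ± 0.10 and 0.06 ± 0.09 (SE, adjusted p = 0.983 each, with 1 of 997 genes, or 0.1%, called). Over all 6 areas the far-over-near values were -0.11 ± 0.11 for Apoe, -0.14 ± 0.12 for Apoc1 and -0.12 ± 0.09 for Apoa1 (adjusted p = 0.983 each, 0.1% of genes called).

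Whether position acted differently by genotype was tested as an interaction. The edgeR values, HIRA KO minus control, were 0.37 ± 0.15 for Apoe, 0.44 ± 0.15 for Apoc1 and 0.40 ± 0.14 for Apoa1 (SE, adjusted p = 0.514, 0.264 and 0.301), ranks 25, 12 and 15 of 997 by p, and 1 of 997 genes, or 0.1%, passed. One area decided this call. Without HIRA KO area 3 the values were 0.57, 0.63 and 0.55 and passed (adjusted p = 3.05e-06, 6.44e-08 and 1.23e-04), as did 19 of 997 genes, or 1.91%. That area was the only HIRA KO area with the sign of the control areas, so leaving it out raises the values by selection. These p-values are therefore no separate test of the interaction. Glul-led cells made up 33% of the 20 nearest cells of a Glul-led cell there, against 6.52% and 10.6% in HIRA KO areas 1 and 2. With anchors chosen by a threshold on Glul instead of the cluster, Apoc1 (1.37) and Apoa1 (0.999) passed and Apoe (0.82, adjusted p = 0.285) did not, with 0.903% of genes called. These anchors numbered 3 and 11 cells in HIRA KO areas 1 and 2 and 12 in control area 1, against 48 to 101 in the other areas. With position scaled between Glul-led and cholangiocyte-like cells the Apoc1 and Apoa1 values turned to -0.18 and -0.07 and the Apoe value was 0.02.

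The clusters and the axis moved together. The far cells were in the Neat1-led cluster in 76.3%, 75.1% and 77.1% of cases in control areas against 63.5%, 58.3% and 67.2% of near cells, and in HIRA KO areas in 19.4%, 10.8% and 13.7% against 24.8%, 19% and 16.5%. Ttr, far over near, gave log2 -0.31, -0.44 and -0.33 in control and 0.26, 0.45 and -0.01 in HIRA KO areas. The part of cluster membership in the position values was not tested. In Kupffer-like cells, far over near gave log2 -0.01 ± 0.08 for Apoe, 0.06 ± 0.09 for Apoc1 and 0.10 ± 0.13 for Apoa1 (SE, edgeR adjusted p from 0.972 to 0.983), and 2 of 922 genes, or 0.217%, passed.

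**Figure D5:**
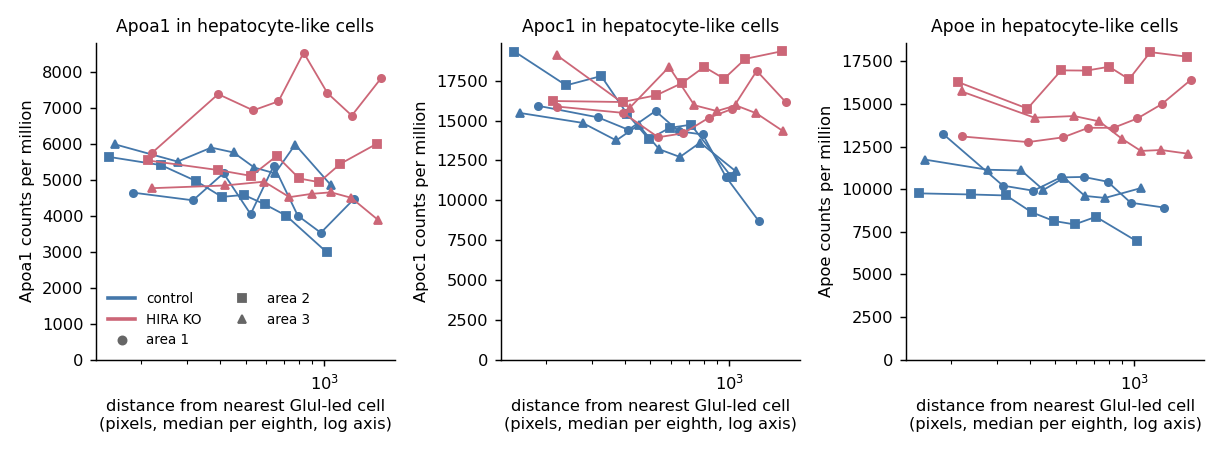
Levels in CPM (linear axis from 0) of Apoa1, Apoc1 and Apoe in hepatocyte-like cells against the distance from the nearest Glul-led cell in pixels (log axis), with each tissue area cut into 8 groups of equal size and plotted at the median distance of each. The control lines of Apoc1 and Apoe end below where they begin, and the HIRA KO lines of areas 1 and 2 end above their first point for Apoe.

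Transcripts of these genes lay over the nucleus less often than the pooled transcripts of all genes. The pool includes the nuclear RNA Neat1, and how many single genes lie below it was not counted. In hepatocyte-like cells 18.8% to 24.4% of Apoe, 18.4% to 23.2% of Apoc1 and 21.4% to 33% of Apoa1 transcripts lay over the nucleus, against 40.1% to 54.2% of the transcripts of all genes. Each was below all genes in 6 of 6 areas, with mean differences of -24.9, -26.1 and -19.2 percentage points (exact sign-flip tests, two-sided, p = 0.031, adjusted p = 0.0469 over 9 tests). In Kupffer-like cells Apoe was at 29.8% to 35.9%, Apoc1 at 19% to 31.2% and Apoa1 at 16.5% to 26.4%, below the 43.8% to 54.5% of all genes in 6 of 6 areas (exact tests, adjusted p = 0.0469). HIRA KO areas had lower nuclear shares than control areas for all of them in hepatocyte-like cells, for example 18.8%, 19.5% and 19.2% against 24.4%, 24.1% and 23.2% for Apoe, and so did all genes together, at 41.2%, 41.8% and 40.1% against 53.2%, 54.2% and 48% (exact permutation tests, p = 0.1 each, the smallest possible). Outside any cell lay 5.91% to 11% of Apoe, 5.34% to 12.9% of Apoc1 and 5.34% to 12.4% of Apoa1 transcripts, each above the 5.45% to 8.40% of all genes in 5 of 6 areas (exact sign-flip tests, p = 0.0625).

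Fields of view within an area differed widely. Over the 50 fields Apoe in hepatocyte-like cells ranged from 5210 to 21622 CPM with a median of 11390, Apoc1 from 6669 to 25940 CPM with a median of 13246, and Apoa1 from 1813 to 9540 CPM with a median of 4812. Differences between fields of the same area made up 53.9% of the log2 variance of Apoe, 85.8% of that of Apoc1 and 69.9% of that of Apoa1. Within areas the highest field exceeded the lowest by 1.43-fold to 2.29-fold for Apoe, 1.74-fold to 3.55-fold for Apoc1 and 1.76-fold to 3.61-fold for Apoa1. As a description over the 50 fields, which share their area, depth and mix of clusters, Apoa1 correlated with Apoc1 at r = 0.70 and with Apoe at r = 0.58, and Apoc1 with Apoe at r = 0.64. In HIRA KO area 1 these correlations were 0.36, 0.15 and 0.19 over 8 fields, and in control area 2 they were 0.98, 0.95 and 0.95, also over 8 fields.

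The genes whose pattern was most like each member were ranked by Pearson's r of log2 CPM, again as a description. Over 36 sums of 6 named classes by 6 areas and 740 genes, Apoa1 was most like Fgg, a fibrinogen chain (r = 0.87), Azgp1, a secreted glycoprotein (r = 0.83), and Arg1 (r = 0.82). Apoc1 was most like H2-Q10, a secreted class I molecule of the liver (r = 0.85), Neat1 (r = 0.80) and Glud1, the mitochondrial glutamate dehydrogenase (r = 0.80). For Apoe the highest values were lower, Myl12b, a myosin light chain, and Hsp90b1, a chaperone of the endoplasmic reticulum, at 0.61 each and the adhesion molecule Vcam1 at 0.60, and its r was -0.15 with Apoa1 and 0.08 with Apoc1.

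Over the fields of hepatocyte-like cells, with 685 genes compared, the order changed. Apoe was most like Ttr (r = 0.87), Gc (r = 0.83) and Atp5b, a subunit of the mitochondrial ATP synthase (r = 0.82). Apoc1 was most like the antioxidant enzymes Sod1 (r = 0.87) and Gpx1 (r = 0.84) and Atp5e, another ATP synthase subunit (r = 0.78), and Apoa1 was most like Apoc1 (r = 0.70), Fgg (r = 0.69) and Glud1 (r = 0.61).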

How the data were processed

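The count table the authors deposited gives, for each segmented cell, how many transcripts of each target were decoded, with no normalization, beside a table of single transcripts and, per the file headers, stain intensity, cell area and position per cell. Decoding and segmentation were done on the platform, and software versions are not given in the sources used here. Runs of consecutively numbered fields of the same genotype made up the 6 areas, and each of the 50 fields was closest to its own area on the slide.

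Cells under 20 counts or above 5 times the geometric mean area were left out, as in the study. Counts without Apoa1, Apoc1 and Apoe were turned into Pearson residuals (theta 100, clip 10), reduced to 30 components and clustered (20 neighbours, Leiden resolution 1.6; leidenalg 0.10.2, Python 3.11.15). A cluster was named when at least 3 markers of a class were raised by more than 0.5 (log2) and that class led its 10 leading genes. Segmentation overlap was not removed, and no doublet caller was run.

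Area sums were tested with edgeR 4.0.16 (R 4.3.3; TMM, filterByExpr, quasi-likelihood, Benjamini-Hochberg at 0.05), with DESeq2 1.42.0 and limma 3.58.1 as alternatives, and single values with exact tests over areas. The fits were tested on simulated data. Negative probes and transcripts outside cells entered neither totals nor tests. Genes named besides the members are the 3 most correlated per member (offset 10 CPM, mean above the highest negative probe) and list members that were called or had the lowest p. The members and lists were chosen with earlier results of these data known. Alternatives were other scalings, filters, clusterings, count minima, anchors and axes, the slide row as a block and leaving out each area.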

Additional observations from a re-analysis of the deposited data

How the results depend on the processing

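Of 204 alternatives over 17 results, 174 kept the direction and the side of the threshold. Only the Kupffer-like ratios of Apoe and Apoc1 to Apoa1 passed in the main setting, so for the rest this means not passing in either. For each of these ratios 6 of 12 alternatives stayed and 6, those with 1 area left out, no longer passed. Among the 174 are the Kupffer-like ratios to the plasma protein sum, at an adjusted p of 0.0469 over the 12 ratios of Apoe and Apoc1 (exact tests). With Apoa1 added to make 18 ratios this came to 0.0511. Apoe in hepatocyte-like cells (log2 0.72) passed with DESeq2 (0.718) and with limma-voom on fields of view (0.667), and in Kupffer-like cells (0.461) with limma-voom (0.436). In single clusters, added after the data were seen, the sign turned for Apoa1 in the Gc-led (-0.326) and Ttr-led (-0.639), for Apoc1 in the Neat1-led (-0.0517), Gc-led (-0.527) and Ttr-led (-0.685), and for Apoe in the Gc-led (-0.000515) and Ttr-led cluster (-0.0603). Apoc1 in Kupffer-like cells turned from -0.146 to 0.0172 with classes by marker score. Position by genotype passed with anchors set by a Glul threshold for Apoa1 (0.999) and Apoc1 (1.37), turned for Apoa1 (-0.0735) and Apoc1 (-0.18) on the axis between Glul-led and cholangiocyte-like cells, and ranged over 0.271 to 0.55, 0.347 to 0.628 and 0.262 to 0.569 for Apoa1, Apoc1 and Apoe when each area was left out, passing without HIRA KO area 3. Genotype values with 1 area left out ranged over 0.195 (without HIRA KO area 1) to 0.488 for Apoa1 and 0.279 to 0.402 for Apoc1 in hepatocyte-like cells, and over 0.149 (without HIRA KO area 1) to 0.351 for Apoa1, -0.27 (without HIRA KO area 3) to -0.0891 (without HIRA KO area 1) for Apoc1 and 0.333 to 0.588 for Apoe in Kupffer-like cells. The Kupffer-like ratios to Apoa1 ranged over 1.98 to 2.12 for Apoe and 0.583 to 0.71 for Apoc1 (log2) with 5 areas, where the exact p cannot go below 0.0625. The cause of these changes was not tested. By the labels, no paired analysis was possible because their numbers are those of fields of view, which the groups do not share. Areas were paired only by slide row, as a block, which changed no call (0.353, 0.337 and 0.719 for Apoa1, Apoc1 and Apoe in hepatocyte-like and 0.255, -0.148 and 0.461 in Kupffer-like cells). With 3 areas per group an exact test cannot go below 0.1, and cells with few counts limit Apoa1 outside hepatocyte-like cells, where 1 area held as few as 37 of its counts in T/NK-like cells.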

Other observations

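Cell groups outside the comparisons also carried these transcripts. The 1345 Glul-led cells, taken as the pericentral anchors, held Apoc1 at 20755 ± 2732 CPM in control and 14850 ± 5845 CPM in HIRA KO areas (SD, n = 3), Apoe at 14463 ± 2992 and 17238 ± 3279 CPM, and Apoa1 at 4624 ± 977 and 4473 ± 1450 CPM, with overlapping areas for each. A group of 1423 cells led by Saa1/2, acute-phase genes, held Apoa1 at 4906 ± 385 and 5089 ± 1125 CPM, in the range of hepatocyte-like cells, and Apoe at 11211 ± 342 and 11549 ± 2164 CPM, also overlapping.

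Among 1268 cells led by the neutrophil gene S100a9, Apoe was 9890 ± 1083 CPM in control and 12665 ± 199 CPM in HIRA KO areas (SD, n = 3). The 1476 B lineage-like cells, as few as 28 in 1 area, had Apoe at 7370 ± 2084 and 8812 ± 1596 CPM, with overlapping areas. Their Apoa1 was 1169 ± 597 and 745 ± 556 CPM and their Apoc1 5330 ± 3421 and 2471 ± 1097 CPM, also overlapping.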
